A study of Mus musculus with 22 samples.

Results

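The Schlafen family was represented by 7 genes, Slfn1, Slfn2, Slfn3, Slfn4, Slfn5, Slfn8 and Slfn9, in murine bone marrow-derived macrophages (BMDM). Its members were taken by name: every probe whose RefSeq accession belongs to one of these symbols was included, which gave 9 of the 55681 non-control probes on each array. The 7 genes were among the 18355 genes named through the RefSeq gene table that had a tested probe. All 9 probes were among the 28054 that entered the tests, which carried an NCBI accession and gave a signal well above background (Agilent's own spot call) on at least 3 of the 22 arrays. Slfn1 and Slfn4 passed that filter through the LPS arrays: they were well above background on 11 of 11 LPS arrays, but on 2 and 1 of 11 medium arrays, respectively. The other 7 probes were well above background on all 22 arrays.

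The study compared BMDM of wild-type (wt) mice with BMDM lacking the kinase MK2 (MK2-/-) or both MK2 and MK3 (MK2/3-/-), kinases that act below the stress kinase p38 and control the stability and translation of cytokine transcripts. All mice were male C57BL/6 animals by the labels, aged 12 to 13 weeks for wt, 10 to 13 weeks for MK2-/- and 11 to 14 weeks for MK2/3-/-, and marrow was cultured for 9 days with 10 ng/ml of the growth factor M-CSF. Cells then received 100 ng/ml LPS, the outer membrane component of Gram-negative bacteria that TLR4 senses, or culture medium alone for 360 min. The arrays numbered 4 for wt medium, 3 for wt LPS, 4 for MK2-/- medium, 4 for MK2-/- LPS, 3 for MK2/3-/- medium and 4 for MK2/3-/- LPS. Both knockouts are constitutive, and the double knockout lacks MK2 as well, so that no group lacks MK3 alone. The methods describe the experiments as independent, without tying arrays to animals.

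Schlafen proteins take their name from the German word for sleeping, since forced expression of Slfn1 slows thymocyte growth. The mouse genes are grouped by the length of their proteins into a short class (Slfn1 and Slfn2), an intermediate class (Slfn3 and Slfn4) and a long class with a helicase-like part (Slfn5, Slfn8 and Slfn9). Several members are induced by type I interferon and by bacterial products in myeloid cells, and Slfn2 keeps T cells and monocytes quiescent.

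The genes lie side by side on mouse chromosome 11 in the order Slfn5, Slfn9, Slfn8, Slfn2, Slfn1, Slfn4 and Slfn3, with the pseudogene Slfn10-ps between Slfn8 and Slfn2 (RefSeq gene table, GRCm38.p6). RefSeq promoter windows, from 250 bases before to 50 bases after the annotated transcript start, were found for 7 of the 7 members. The windows of Slfn8 and Slfn9 are shown whole because these genes are near-copies there: an alignment with free ends held 246 identical bases over 298 columns, whereas none of the other 20 pairs of windows held more than 30 identical bases. With free ends those other alignments were short. The longest, of Slfn5 and Slfn3, held 30 identical bases over 50 columns, so their counts are not shares of a whole window. Capitals mark the core of the interferon-stimulated response element (ISRE), searched on both strands as GAAANNGAAA, an element bound by transcription factors that interferon activates. All sequences are written 5′ to 3′ along the gene.
Slfn9, chr11:82991781-82992080, minus strand: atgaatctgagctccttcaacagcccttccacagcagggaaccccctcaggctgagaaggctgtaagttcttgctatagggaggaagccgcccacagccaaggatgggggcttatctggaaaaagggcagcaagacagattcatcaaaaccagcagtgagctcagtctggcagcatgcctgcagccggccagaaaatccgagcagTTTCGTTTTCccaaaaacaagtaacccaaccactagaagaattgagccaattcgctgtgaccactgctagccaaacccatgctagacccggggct
Slfn8, chr11:83020761-83021060, minus strand: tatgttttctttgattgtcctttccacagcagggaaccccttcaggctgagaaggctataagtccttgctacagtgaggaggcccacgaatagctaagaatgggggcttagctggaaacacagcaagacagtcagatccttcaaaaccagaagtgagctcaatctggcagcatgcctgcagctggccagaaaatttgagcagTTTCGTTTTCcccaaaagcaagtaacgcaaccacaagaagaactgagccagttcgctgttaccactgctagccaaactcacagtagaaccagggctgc

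The third long member, Slfn5, held the ISRE core farther upstream, and 60 bases around it are shown. For the 4 members of the short and intermediate classes, 60 bases are shown around the letters ACTTCCTGG (capitals), which hold on their other strand the GGAA core bound by ETS factors and were noticed while reading these windows.
Slfn5, chr11:82951922-82951981, plus strand: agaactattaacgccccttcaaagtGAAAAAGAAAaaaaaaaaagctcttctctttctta
Slfn2, chr11:83065031-83065090, plus strand: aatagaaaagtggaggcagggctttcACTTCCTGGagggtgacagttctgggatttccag
Slfn1, chr11:83116720-83116779, plus strand: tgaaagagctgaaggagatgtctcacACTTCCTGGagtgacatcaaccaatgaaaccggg
Slfn4, chr11:83175087-83175146, plus strand: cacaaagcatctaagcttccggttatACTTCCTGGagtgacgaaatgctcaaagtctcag
Slfn3, chr11:83191262-83191321, plus strand: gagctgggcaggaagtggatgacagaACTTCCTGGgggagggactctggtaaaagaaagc

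The ISRE core was thus present in the windows of 3 of 7 members, all of the long class, against 3.44% of the 32851 windows in the table. As the windows of Slfn8 and Slfn9 are near-copies, these 3 matches are not independent. Counted from the transcript start, the core lay at -155 to -146 in Slfn5, at -45 to -36 in Slfn9 and at -48 to -39 in Slfn8, on the opposite strand in the last 2. ACTTCCTGG was present in the other 4 members, starting at -74 in Slfn1, -73 in Slfn4, -55 in Slfn2 and -42 in Slfn3, and in 0.843% of all windows. Since these letters were picked from the members' own windows, the comparison is a description only. The gamma-activated site TTCNNNGAA was in 0 of 7 members and in 8.3% of all windows, and the NF-kB motif, searched by its usual degenerate form on both strands, was in Slfn9 and Slfn1 and in 8.46% of all windows. No match in these windows overlapped another. A match shows the letters only, and binding was not measured.

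**Figure D1:**
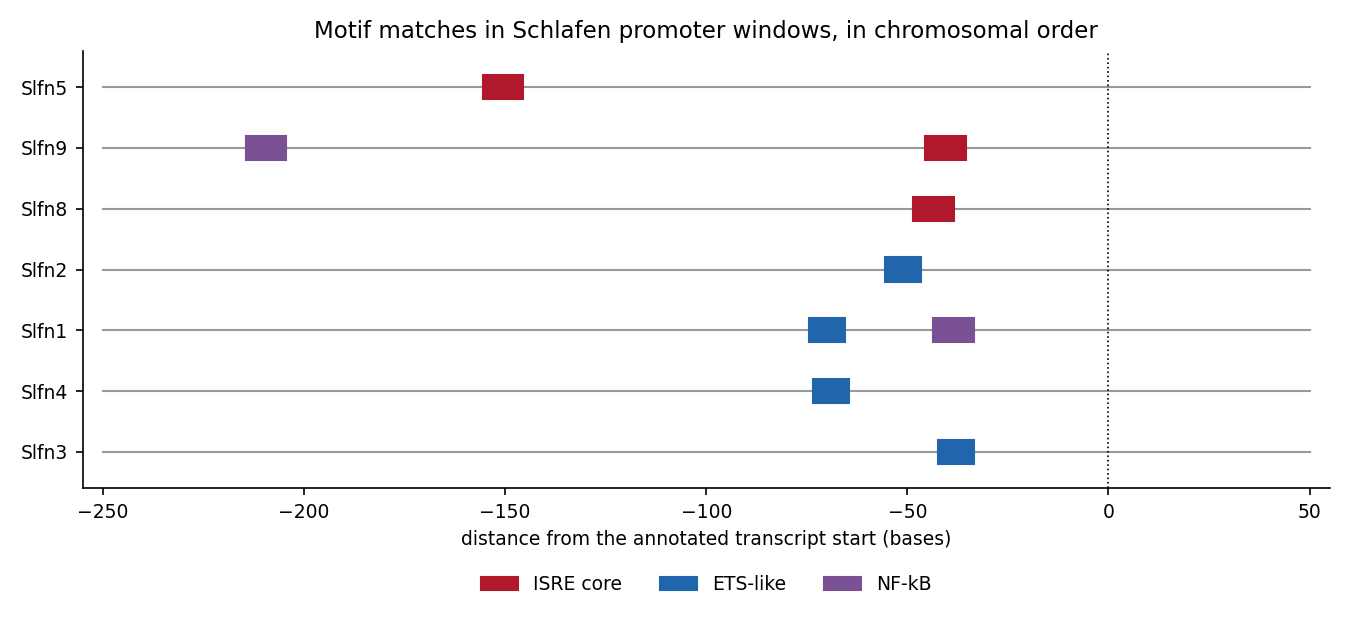
Positions of motif matches in the promoter windows of the 7 Schlafen genes, in chromosomal order, as distance in bases from the annotated transcript start (dotted line). Red blocks (ISRE core) appear in the 3 upper rows and blue blocks (ETS-like letters) in the 4 lower rows, and purple blocks (NF-kB) in Slfn9 and Slfn1.

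The arrays were checked before the members were compared. Between 61.7 and 83.0% of probes were well above background on an array, and each genotype lay on a slide of its own (3 slides), so that genotype and slide cannot be told apart in any comparison between genotypes, whereas each LPS response was measured within a slide. The signal of Mapkapk2 averaged 11.90 and 14.89 on the log2 scale in wt medium and LPS, against 8.88 and 11.61 in MK2-/- and 8.44 and 11.02 in MK2/3-/-. Mapkapk3 averaged 13.13 and 12.12 in wt, 12.90 and 12.35 in MK2-/-, and 11.16 and 8.0 in MK2/3-/-. Replicate 3 of MK2-/- was low in the Y-linked Ddx3y on both its arrays (1.99 and 2.01, against 10.09 to 11.26 elsewhere), against its male label. Of the macrophage markers, 7 of 8 had a named probe and 6 of these were well above background on every array. Scaling to the 75th percentile in place of quantile normalisation moved the median of all probes by 0.25 to 0.31 in the LPS responses and by 0.28 to 0.40 in the comparisons of a knockout with wt. With it the share of called probes that were higher went from between 38.8 and 43.6% to between 52.6 and 59.6% in the LPS responses, from between 36.0 and 55.3% to between 55.8 and 67.3% between genotypes under LPS, and from between 61.1 and 67.0% to between 83.9 and 90.2% between genotypes in medium. It went from 52.6 to 36.4% for the difference in response between the knockouts.

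The Schlafen genes rose together in LPS-treated BMDM of every genotype. All 7 were higher with LPS at an adjusted p below 0.05 (limma, Benjamini-Hochberg over all 28054 probes) in wt, in MK2-/- and in MK2/3-/-, where 18.4%, 17.6% and 20.2% of all probes were higher. The rise was at least 4-fold for 6 genes in wt, 7 in MK2-/- and 7 in MK2/3-/-, against 4.52%, 5.26% and 5.38% of all probes. On all 9 probes every one of the 11 LPS arrays lay above every one of the 11 medium arrays, which held for 8.25% of all probes. The median change over the 7 genes was 3.74, 4.33 and 4.21 on the log2 scale, whereas the median over all probes was -0.06, -0.04 and -0.02. These counts and medians include Slfn1 and Slfn4, which entered the tests through their LPS arrays. The genes measured on all arrays were Slfn2, Slfn3, Slfn5, Slfn8 and Slfn9. On the brighter probe their log2 changes ran from 1.52 to 3.86 in wt, 2.41 to 4.65 in MK2-/- and 2.37 to 4.78 in MK2/3-/-. A rise on the array cannot tell more RNA per cell from more cells that express the gene.

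In the short class, Slfn1 (NM_011407) went from near the floor of the array to a strong signal. Its log2 signals in wt were 1.99, 2.01, 3.77 and 5.86 in medium and 9.87, 10.61 and 10.35 with LPS. They were 2.03, 1.99, 2.01 and 3.36 against 9.58, 10.26, 9.41 and 10.86 in MK2-/-, and 4.28, 2.60 and 1.99 against 10.23, 11.17, 10.70 and 10.96 in MK2/3-/-. No LPS array came near a medium array in any genotype. Since most medium arrays were not well above background, the size of the change was not measured. For a more cautious figure the dim arrays were set to the lowest signal of any probe called well above background there. Their own signal was kept where it was higher. With these values Slfn1 was 87.6-fold higher with LPS in wt, 131-fold in MK2-/- and 187-fold in MK2/3-/-. These folds are no minimum, since they depend on how the background was treated. On the signals as they were, Slfn1 was called in wt, MK2-/- and MK2/3-/- (limma adjusted p = 4.2e-07, 1.9e-08 and 4.4e-08). Only 1 of 4, 0 of 4 and 1 of 3 medium arrays, respectively, measured it above background.

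Slfn2 (NM_011408), the quiescence factor, was already well expressed in medium. Its log2 signals in wt were 12.70, 13.12, 12.53 and 13.28 in medium and 15.98, 16.30 and 16.47 with LPS. The change was 3.34 (SE 0.22) in wt, 3.03 (SE 0.21) in MK2-/- and 3.04 (SE 0.22) in MK2/3-/-, or 10.1-, 8.17- and 8.22-fold. The LPS arrays of the 3 genotypes lay within 15.98 to 16.47.

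In the intermediate class, Slfn4 (NM_011410), known from myeloid cells, also started near the floor. In wt it gave 2.63, 2.01, 3.69 and 7.16 in medium and 11.51, 11.08 and 10.60 with LPS. All 7 medium arrays of the knockouts lay between 1.99 and 2.03 and none was well above background, whereas the LPS arrays gave 9.94, 10.98, 10.07 and 10.44 in MK2-/- and 10.08, 11.57, 10.88 and 10.52 in MK2/3-/-. With the dim arrays set in the same way, Slfn4 was 122-fold higher with LPS in wt, 164-fold in MK2-/- and 306-fold in MK2/3-/-. On the signals as they were, it was called in each (limma adjusted p = 4.3e-07, 1.2e-08 and 1.8e-08). The sizes of both genes depended on how the background was treated. With the dim arrays so set, the log2 changes were 6.45, 7.03 and 7.54 for Slfn1 and 6.93, 7.36 and 8.26 for Slfn4. With normexp correction and an offset of 50 they were smaller, at 3.97, 3.98 and 4.63 for Slfn1 and 4.58, 4.23 and 4.71 for Slfn4. Both genes were still called in each genotype with that correction.

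Slfn3 (NM_011409), studied mostly in gut epithelium, gave 6.64, 6.65, 6.76 and 7.11 in wt medium and 10.68, 10.55 and 10.71 in wt LPS. Its change was 3.86 (SE 0.34) in wt, 4.33 (SE 0.31) in MK2-/- and 4.78 (SE 0.34) in MK2/3-/-, or 14.5-, 20.1- and 27.4-fold. In medium the knockout arrays were spread from 4.96 to 6.91, and 6 of these 7 lay below all wt arrays.

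Among the long members, Slfn5 (NM_183201), a nuclear protein induced by interferon, gave 6.63, 7.84, 6.97 and 6.85 in wt medium and 9.92, 11.44 and 11.02 in wt LPS. Its change was 3.72 (SE 0.35), 4.65 (SE 0.32) and 4.21 (SE 0.35) in wt, MK2-/- and MK2/3-/-. Slfn8 was read by 2 probes of different transcripts. The first (NM_181545) gave 10.75, 11.89, 11.46 and 11.49 in wt medium and 15.06, 15.22 and 15.14 in wt LPS, and changed by 3.74, 3.49 and 3.52 in the 3 genotypes (SE 0.25 to 0.27). The second probe (NM_001167743) changed by 3.32, 3.59 and 3.82. Over both probes and the 3 genotypes the rise was between 9.96- and 14.2-fold.

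Slfn9 (NM_172796), the near-copy of Slfn8 at the promoter, was read by 2 probes of the same transcript. On the first, its rise was the smallest of the 7 genes in each genotype. That probe gave 10.39, 11.76, 10.58 and 9.94 in wt medium and 12.21, 12.47 and 11.90 in wt LPS, so that the highest medium array lay just under the lowest LPS array. The change was 1.52 (SE 0.37, limma adjusted p = 0.0028) in wt, 2.41 (SE 0.34) in MK2-/- and 2.37 (SE 0.37) in MK2/3-/-, or 2.87-, 5.3- and 5.15-fold. The second probe changed by 2.55, 3.47 and 3.50, in MK2-/- and MK2/3-/- above the 3.03 and 3.04 of Slfn2. On both Slfn9 probes the rise in wt was smaller than in either knockout.

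**Figure D2:**
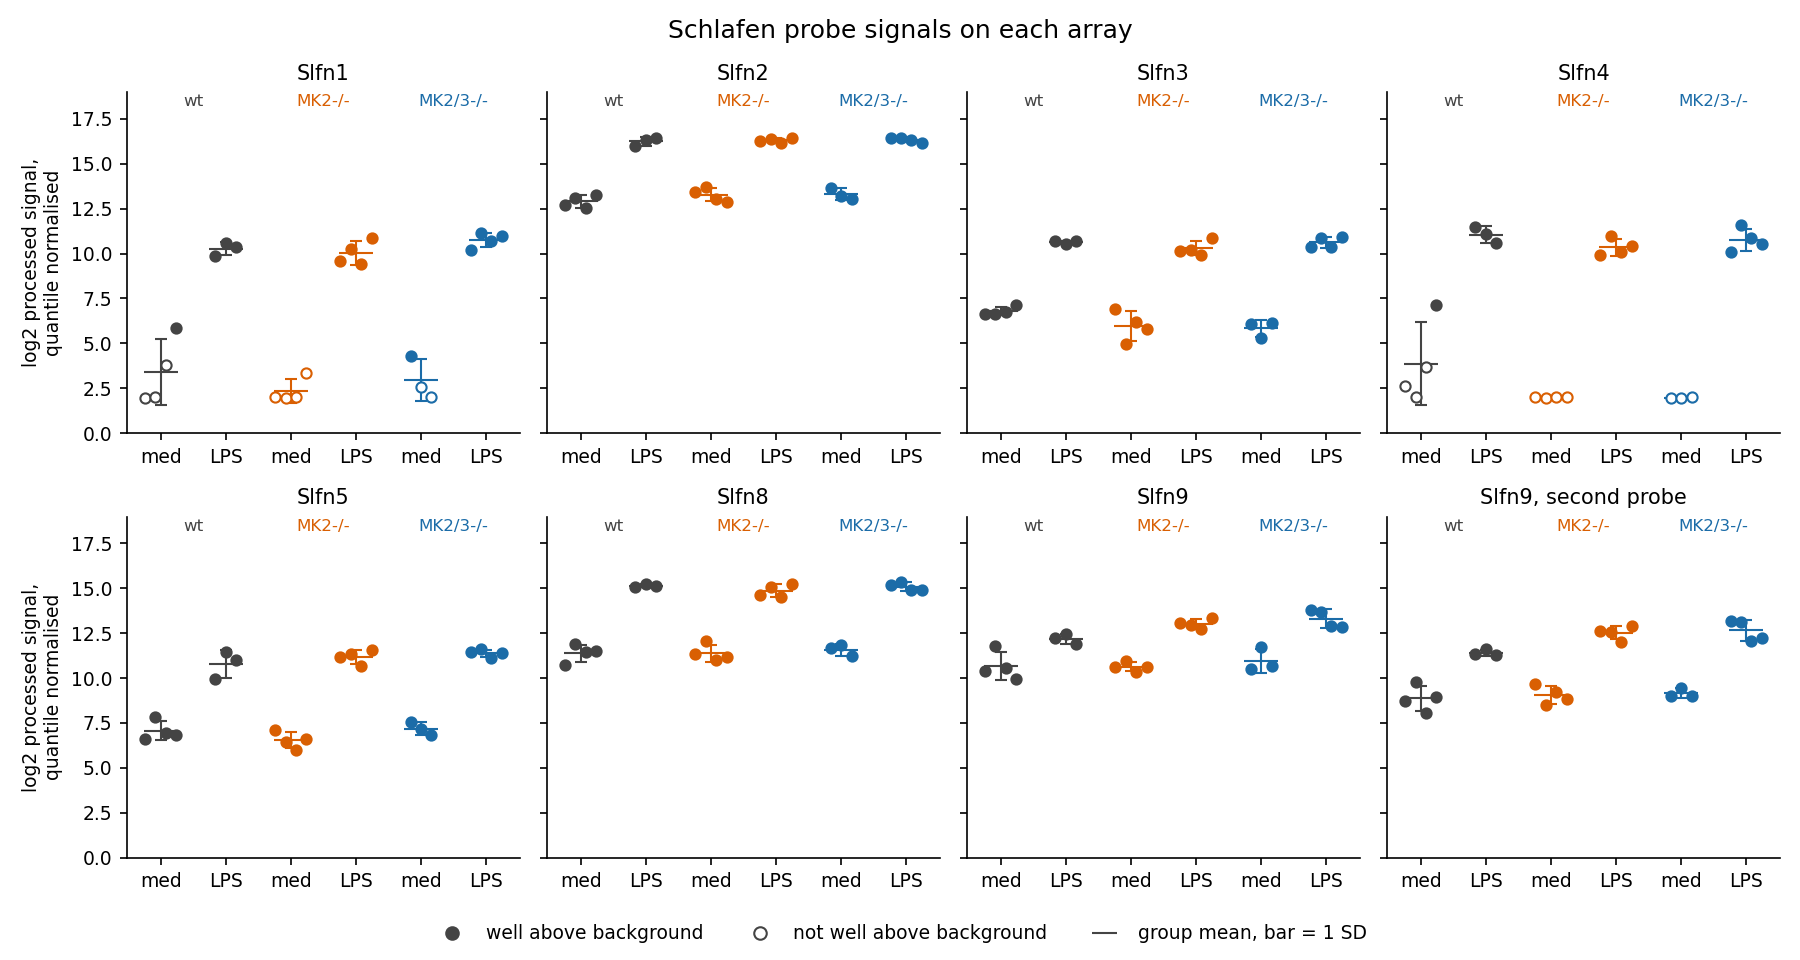
Log2 processed signal (quantile normalised) of 8 Schlafen probes on each of the 22 arrays, by genotype and treatment (med, medium), with group means and 1 SD. Filled points are well above background and open points are not. Every LPS point lies above every medium point of the same probe, and for Slfn9 the wt LPS points lie below those of both knockouts.

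**Figure D3:**
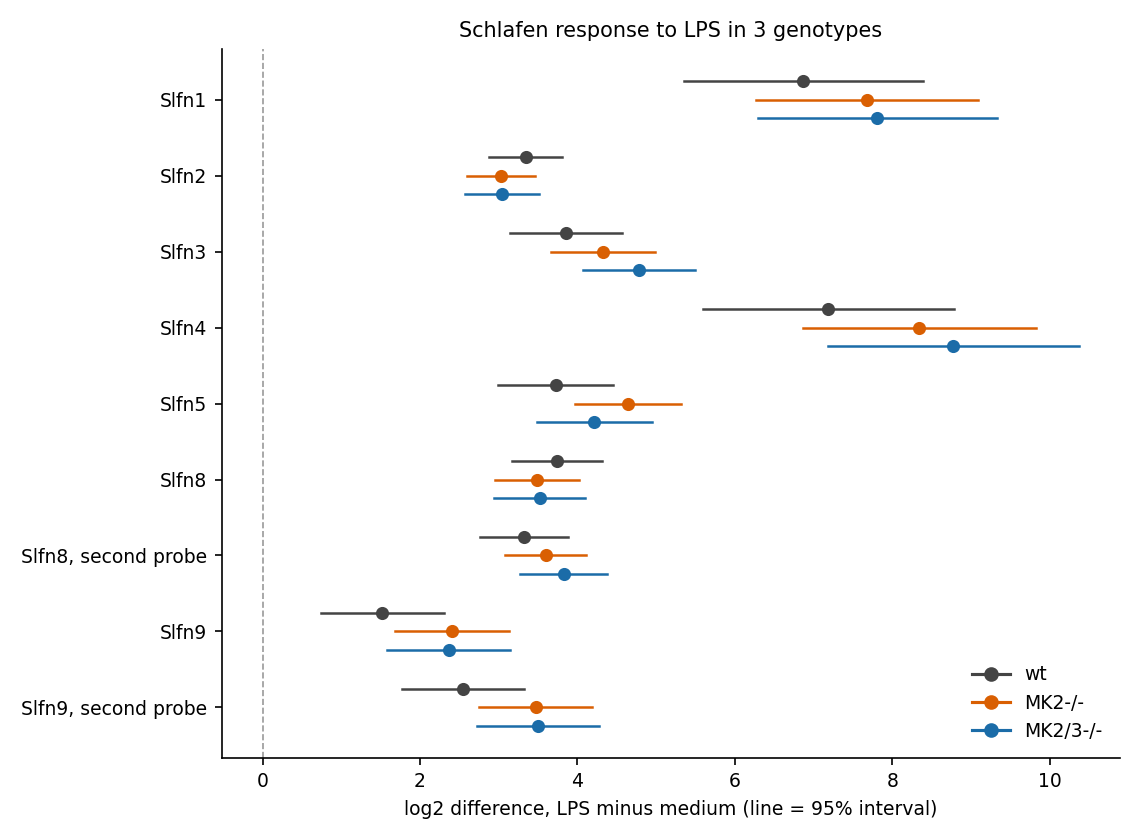
Log2 difference between LPS and medium for the 9 Schlafen probes in wt, MK2-/- and MK2/3-/- BMDM, with 95% intervals from limma as lines. All intervals lie to the right of 0, and the points run from 1.52 for Slfn9 in wt to 8.78 for Slfn4 in MK2/3-/-, where the fitted size for Slfn1 and Slfn4 depends on medium signals near the floor.

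The genotypes were compared next under LPS. Of the 7 genes, 0 were called in MK2-/- against wt, where 11.6% of all probes were called, and 1 in MK2/3-/- against wt, where 23.7% were called and 8.87% were higher. In MK2/3-/- against MK2-/- 0 of 7 were called, against 13.4% of all probes, and 0 of 7 reached an unadjusted p below 0.05. The median difference from wt over the 7 genes was -0.25 in MK2-/- and 0.09 in MK2/3-/-, beside -0.05 and -0.06 over all probes.

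The called gene was Slfn9. With LPS its first probe gave 13.08, 12.97, 12.71 and 13.37 in MK2-/- and 13.82, 13.70, 12.89 and 12.86 in MK2/3-/-, and all 8 arrays lay above the 3 wt arrays (11.90 to 12.47). The second probe gave 11.34, 11.61 and 11.31 in wt, 12.65, 12.56, 12.01 and 12.90 in MK2-/- and 13.20, 13.14, 12.04 and 12.25 in MK2/3-/-, again without overlap with wt. How many of all probes separate from wt in this way was not counted, so the lack of overlap does not set Slfn9 apart. Slfn9 was higher in MK2/3-/- than in wt by 1.13 (SE 0.37, limma adjusted p = 0.035) on the first probe and by 1.24 (SE 0.37, limma adjusted p = 0.021) on the second, or 2.18- and 2.36-fold. In MK2-/- the differences from wt were 0.84 (SE 0.37, limma adjusted p = 0.14) and 1.11 (SE 0.37, limma adjusted p = 0.057), which did not pass. Between MK2/3-/- and MK2-/- under LPS, Slfn9 differed by only 0.28 and 0.13 on the 2 probes (limma adjusted p = 0.65 and 0.87). In medium its groups overlapped and neither knockout was called.

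The Slfn9 call rested on few arrays. Leaving out wt LPS replicate 1 or 3, or MK2/3-/- LPS replicate 1 or 2, left neither probe called, with limma adjusted p of 0.082, 0.12, 0.097 and 0.089 for the first probe, while its difference stayed between 0.96 and 1.28 over all fits that left out 1 array. A fit on the 2 groups alone also lost the call (limma adjusted p = 0.073 and 0.068 for the 2 probes). Slfn8 and Slfn9 resemble each other, probe sequences were not analysed here, and how far each probe binds the other transcript was not tested.

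For the other members the intervals show what these arrays could resolve. The difference for Slfn2 was 0.06 in MK2-/- (95% interval -0.40 to 0.53) and 0.09 in MK2/3-/- (-0.37 to 0.56), with a turn of sign under the 75th percentile scaling (-0.16 and -0.09). For Slfn8 it was -0.26 in MK2-/- (-0.84 to 0.31) on the first probe and 0.22 (-0.34 to 0.78) on the second, which differ in sign, for Slfn3 -0.35 (-1.06 to 0.36) and for Slfn1 -0.25 (-1.77 to 1.27). Slfn4 differed by -0.71 in MK2-/- (-2.30 to 0.89) and by -0.30 in MK2/3-/- (-1.89 to 1.29), so that for it falls of over 2-fold lie within both intervals. Slfn1 and Slfn5 differed by 0.49 (-1.03 to 2.01) and 0.59 (-0.13 to 1.32) in MK2/3-/-. The LPS arrays of each of these 6 genes overlapped between the genotypes.

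In medium, 0 of the 7 genes were called in MK2-/- against wt, in MK2/3-/- against wt or between the knockouts, where 7.95%, 1.95% and 2.72% of all probes were called. At an unadjusted p below 0.05 there were 2, 2 and 0 genes, which were the intermediate members. The share of all probes at that looser threshold was not counted, so the shares above cannot be set beside these counts. For Slfn4, 1 of 4 wt arrays and 0 of 7 knockout arrays were well above background, so that its fitted differences from wt, -1.86 in MK2-/- and -1.89 in MK2/3-/- (limma adjusted p = 0.11 and 0.20), are set by the floor of the array and are no measured fall. Slfn3, measured on all arrays, differed by -0.82 (SE 0.31) and -0.94 (SE 0.34) (limma adjusted p = 0.11 and 0.16). For Slfn3 the 3 MK2/3-/- arrays lay below the 4 wt arrays, and the share of all probes that do so was not counted. For Slfn4 the same order rests on signals at the floor and is not read.

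A single array held much of the fitted Slfn4 difference. Wt medium replicate 4 gave 7.16, while the other 3 wt arrays gave 2.01 to 3.69 and none of those 3 was well above background. The same array was the highest of its group for Slfn1 (5.86) and Slfn3 (7.11). Over the 1209 probes that rose at least 4-fold with LPS in both knockouts, it lay a median of 0.32 above the mean of the other wt medium arrays, which themselves deviated by -0.18 to -0.08. It was not alone in this, as MK2-/- medium replicates 1 and 2 deviated by 0.26 and -0.26 in the same way. Without wt medium replicate 4 the Slfn4 differences became -0.76 and -0.79 (limma adjusted p = 0.22 and 0.35), and those of Slfn3 -0.71 and -0.83. Other omissions made a call in MK2-/- against wt. Slfn4 differed by -2.48 (limma adjusted p = 0.041) without wt medium replicate 2, and Slfn3 by -1.14 (limma adjusted p = 0.035) without MK2-/- medium replicate 1. With normexp correction the Slfn4 differences were -0.34 and -0.44, neither of them called.

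**Figure D4:**
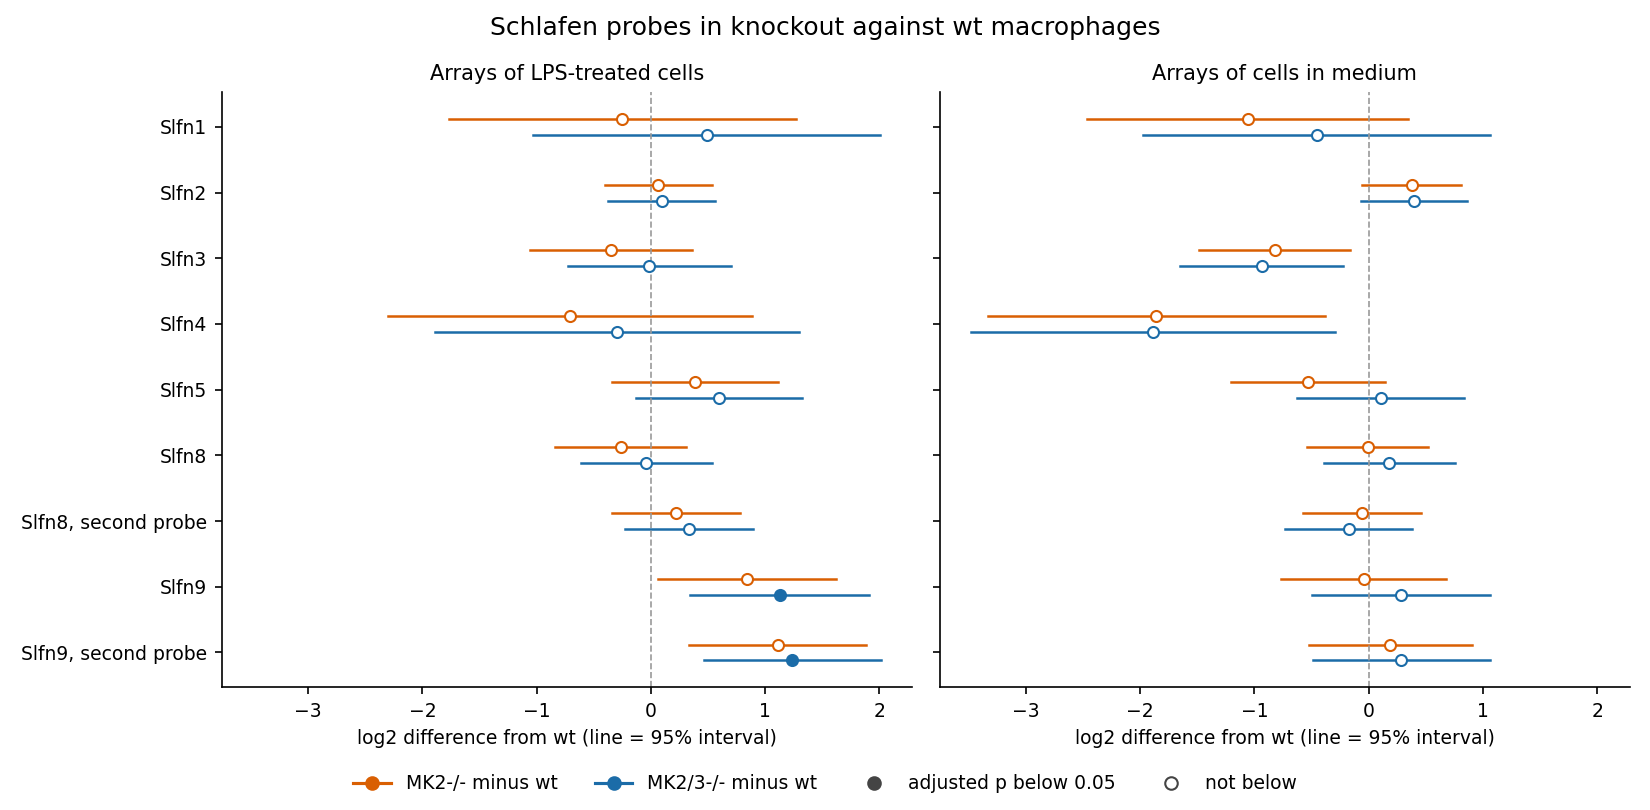
Log2 difference of MK2-/- (orange) and MK2/3-/- (blue) from wt for the 9 Schlafen probes, in LPS-treated cells (left) and in medium (right), with 95% intervals as lines. Filled points passed an adjusted p of 0.05, which only both Slfn9 probes in MK2/3-/- under LPS did (1.13 and 1.24).

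The size of the LPS response itself was then compared between genotypes. Here 0 of the 7 genes were called for MK2-/- against wt, for MK2/3-/- against wt or between the knockouts, and 0 reached an unadjusted p below 0.05 in each. Of all probes 0%, 0.984% and 0.0677% were called. Slfn1 and Slfn4 have no measured size here, since their medium arrays were mostly not well above background. For the first probes of the other 5 genes the differences ran from -0.31 to 0.92 on the log2 scale for MK2-/- against wt and from -0.30 to 0.92 for MK2/3-/- against wt. For Slfn9 the response was larger by 0.88 (95% interval -0.18 to 1.95) in MK2-/- and 0.84 (-0.26 to 1.95) in MK2/3-/- on the first probe, and by 0.92 and 0.95 on the second, none of which passed (limma adjusted p = 0.71, 0.60, 0.70 and 0.52). The higher Slfn9 signal under LPS was therefore not shown to be a difference in its response.

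Other transcripts of the locus were set beside the family. The pseudogene Slfn10-ps (NR_073523), which lies inside the cluster, rose by 2.79, 2.75 and 2.66 in the 3 genotypes and was called in each. Slfn14 and the antisense transcript Slfn5os were well above background on 3 and 8 arrays and were not called in any LPS response. Of the 5 nearest tested genes on each side of the cluster, 2 rose in wt (Rffl by 1.89 and AI662270 by 0.79), 2 fell (Lig3 and Rad51d) and 6 were not called. Rffl, the flanking gene that rose most, rose by 2.86 in MK2-/- and 2.53 in MK2/3-/-, above the 2.41 and 2.37 of the first Slfn9 probe there, and in wt its 1.89 lay between those of the Slfn9 probes (1.52 and 2.55).

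Type I interferon signalling is a known inducer of several Schlafen genes, and 25 of its genes were followed in order of role. Probes of 23 were tested. Mx1 and Mx2 were not reached through the accessions of the gene table used here and were not analysed. With LPS 19, 20 and 19 of the 23 rose and 3, 2 and 3 fell in wt, MK2-/- and MK2/3-/-. The ligand Ifnb1 rose by 7.77, 4.74 and 6.74 on the log2 scale, both receptor chains Ifnar1 and Ifnar2 fell in wt by 0.79 and 0.58, and the transcription factors Stat2 and Irf7 rose there by 2.60 and 3.50. The targets Ifit1, Rsad2 and Isg15 rose by 5.83, 6.87 and 4.73 in wt, and the inhibitor Socs1 by 6.05.

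Between genotypes under LPS, Ifnb1 differed by -2.84 in MK2-/- against wt (limma adjusted p = 0.021), and it was the only one of the 23 called there. In MK2/3-/- against wt 0 of 23 were called under LPS, Ifnb1 differing by -1.78 (limma adjusted p = 0.089), and in MK2/3-/- against MK2-/- 1 was, Ifnar1 differing by -0.82 (limma adjusted p = 0.020). Of the 23, 0 differed in the size of the response in any pair of genotypes. The targets Ifit1, Rsad2 and Isg15 differed in MK2-/- by -0.23, -0.40 and -0.12, none called. The median difference over the 23 genes was -0.12 in each knockout under LPS, beside -0.25 and 0.09 for the Schlafen genes. In medium the medians were -0.44 and -0.22, beside -0.53 and 0.10 for the family. The family medians in medium include Slfn1 and Slfn4, whose signals there were near the floor. In MK2-/- medium the remaining members differed from wt by 0.38 (Slfn2), -0.82 (Slfn3), -0.53 (Slfn5), -0.01 (Slfn8) and -0.04 (Slfn9). No fall of the family as a whole was thus measured there.

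**Figure D5:**
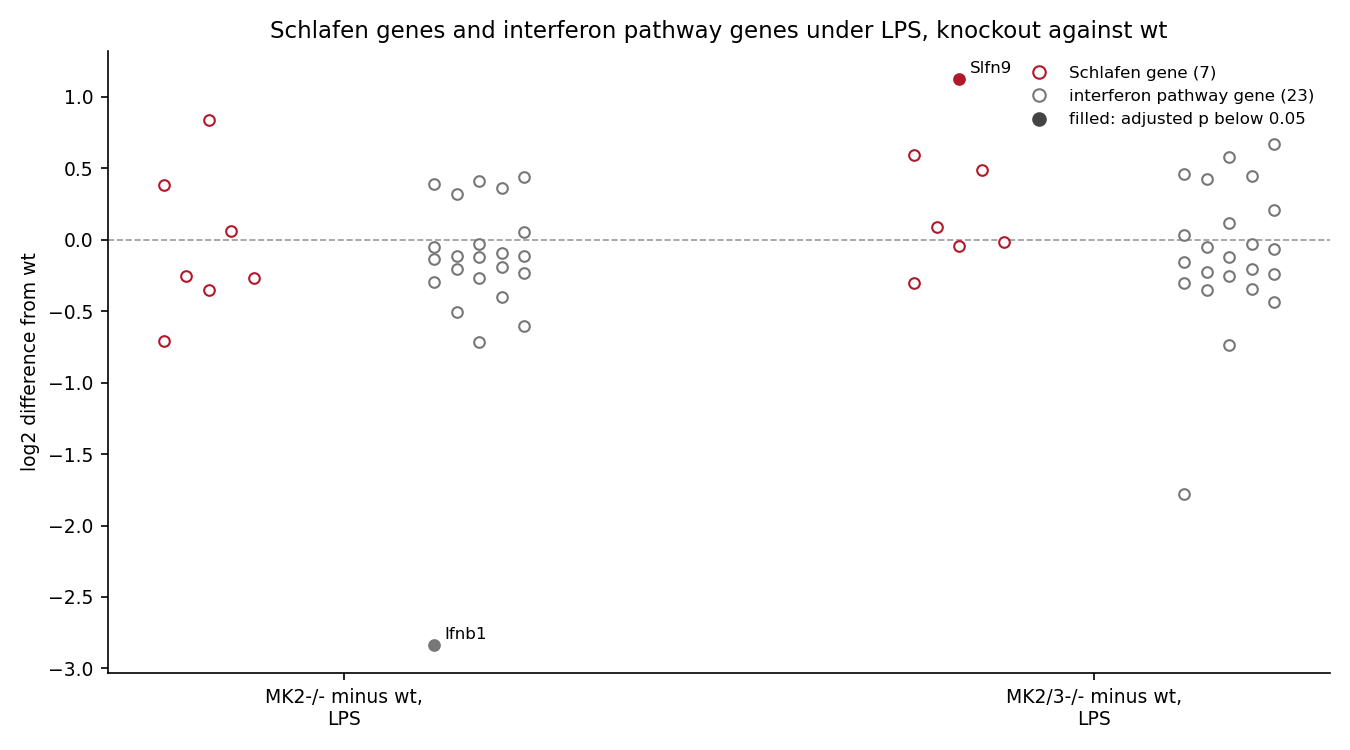
Log2 difference from wt of the 7 Schlafen genes (red) and 23 type I interferon pathway genes (grey) in each knockout under LPS. Filled points passed an adjusted p of 0.05, which were Slfn9 in MK2/3-/- (1.13) and Ifnb1 in MK2-/- (-2.84).

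Over the 22 arrays the members' log2 signals were correlated with r between 0.81 and 0.99 for every pair of probes and these values include the LPS rise. After the mean of each group was subtracted, r was 0.86 for Slfn5 and the second Slfn8 probe, 0.67 for both Slfn8 probes and 0.61 for both Slfn9 probes, and -0.31 for Slfn3 and the first Slfn9 probe. These are descriptions over 22 arrays that share slides, and Slfn1 and Slfn4 are left out since their deviations in medium rest on signals near the floor. The named genes whose signal was most like that of a member, of 18348 compared, were Phf11a for Slfn1 (r = 0.993), Trim30d for Slfn2 (0.995), Phf11c for Slfn3 (0.989), Socs3 for Slfn4 (0.992), Parp14 for Slfn5 (0.992) and Gm5431 for Slfn8 (0.994). The closest gene to Slfn9, Tlr1, reached an r of 0.9496. These r values also include the LPS rise, and those for Slfn1 and Slfn4 rest partly on medium signals near the floor. After the group means were subtracted, r with the member was 0.79 for Trim30d, 0.77 for Phf11c, 0.80 for Parp14, 0.92 for Gm5431 and 0.66 for Tlr1.

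Markers of other cells were read because Schlafen genes are also expressed in lymphocytes and neutrophils. No marker with a probe was below background on every array. The summed T cell markers (6 of 6 with a probe) had a log2 signal of 10.05 to 10.80 in wt medium and 10.94 to 11.40 in wt LPS, without overlap, and 1 of the 5 tested was called higher. The T cell sums overlapped between medium and LPS in MK2-/- (11.16 to 12.31 and 11.69 to 12.12) and in MK2/3-/- (10.61 to 11.25 and 10.83 to 11.93). The B cell sum (4 of 4) was 9.30 to 9.99 in wt medium and 7.98 to 8.28 in wt LPS, the neutrophil sum (6 of 7) 11.64 to 13.00 and 12.82 to 13.59, and the dendritic cell sum (3 of 3) 7.91 to 8.32 and 10.43 to 10.83. Of the dendritic cell markers only Zbtb46 was called, with a rise of 3.71. The macrophage sum (7 of 8) was 19.09 to 19.53 in wt medium and lower, at 18.75 to 18.92, in wt LPS. Of the 7 macrophage markers tested in wt, 2 were called higher with LPS and 3 lower. Between MK2-/- and wt in medium, 1 of 5 T cell markers (Cd3e, 1.31) and 1 of 4 B cell markers (Cd79a, 0.83) were called higher (limma adjusted p = 0.012 and 0.028). The median difference was 0.49 over the T cell markers and -0.25 over the B cell markers. The B cell sums overlapped there, at 8.99 to 10.52 in MK2-/- and 9.30 to 9.99 in wt. Between MK2/3-/- and wt under LPS, where Slfn9 differed, 0 of 5 T cell, 0 of 3 dendritic cell, 0 of 2 NK cell and 0 of 3 stromal markers were called, whereas 1 of 4 B cell and 1 of 2 mast cell markers were higher and 1 of 6 neutrophil markers was lower. The part of such cells in the Schlafen values was not tested.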

How the data were processed

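RNA of each sample was hybridised to an Agilent 1-colour mouse array. The authors deposited, for each spot, a processed intensity from Feature Extraction 11.0.1.1, corrected for background, which is not yet normalised between arrays. A second file deposited by the authors holds log2 signals that were quantile normalised and, per the methods, centred on each probe's median. It followed the values used here with r of 0.992 to 0.999 and served as an alternative.

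Control spots were left out, spots marked as outliers set to missing, and log2 processed signals quantile normalised over the 22 arrays. Probes entered the fit if they carried an NCBI accession and 3 or more arrays gave a signal well above background. They were fitted with limma 3.58.1 (R 4.3.3) on all 6 groups, and p-values were adjusted over 28054 probes (threshold 0.05). For a gene with 2 probes the one with the higher mean signal stands for it in counts. In data simulated for the LPS response in wt, with 100 probes changed at each size, 31% of 2-fold and 67% of 4-fold changes were recovered. Of the 108 probes called there, 10 were false. In the real response 5149 probes were called higher, which makes the adjustment less strict, so these shares do not describe it. The number of arrays limits the precision.

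Named were all members, other Schlafen transcripts, 25 interferon genes, 5 flanking genes on each side, and the 3 genes most alike. These members and lists were chosen with earlier results of these data known. Alternatives were the scaling, normexp correction (offset 50, on the median signal), the filter, array weights, the methods' t-test, the replicate block and leaving out arrays. The single calls of the interferon list in medium are not reported here.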

Additional observations from a re-analysis of the deposited data

Results flagged for a closer look

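Slfn1 (NM_011407) in MK2-/- medium replicate 4 had a log2 signal of 3.36, while the other 3 arrays of that group lay between 1.99 and 2.03. The gap between it and the nearest of the others was 0.965 of the range of the group, above Dixon's 95% critical value for 4 arrays. None of the 4 arrays was well above background for this probe. It was the only such value among 36 groups of 4 arrays looked at, and chance alone gives about 1 in 20.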

How the results depend on the processing

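All 7 genes were called higher with LPS in each genotype under every alternative run, with 1 exception: by the methods' t-test with Benjamini-Hochberg adjustment 6 were called in wt, Slfn9 missing (adjusted p = 0.059). For MK2/3-/- against wt under LPS, where 1 gene was called, 0 were called with only the groups compared and 0 by that t-test (Slfn9 adjusted p = 0.13), and between 0 and 1 when 1 array at a time was left out. For MK2-/- against wt under LPS, 1 gene passed the methods' t-test unadjusted. In medium, 1 gene was called with array weights in MK2-/- (Slfn4, -2.32) and 1 in MK2/3-/- (Slfn3, -0.97), 1 passed the unadjusted t-test in MK2/3-/-, and leaving out 1 array gave between 0 and 1 in MK2-/-. The methods' t-test was not run on differences in response, since it compares 2 groups only.

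The sign of the small Slfn2 differences under LPS turned. In MK2-/- against wt the value was -0.16 with the 75th percentile scaling and -0.030 with array weights, and it ran from -0.070 to 0.17 when 1 array was left out. In MK2/3-/- against wt it was -0.089 with that scaling and ran from -0.040 to 0.20. The second Slfn8 probe in MK2-/- against wt under LPS ran from -0.064 (without wt LPS replicate 1) to 0.44 when 1 array was left out. The cause was not tested. The second Slfn9 probe, not called in MK2-/- against wt under LPS, passed in 6 of 13 alternatives, which include an unadjusted t-test. By limma it passed with normexp correction (adjusted p = 0.041), the authors' table (0.049), the groups compared alone (0.042) and array weights (0.010). It also passed in 5 of the 22 fits that left out 1 array.

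The replicate number as a random block (limma, correlation 0.12) left each count of called genes as it was, and Slfn9 in MK2/3-/- against wt under LPS was then 1.15 (adjusted p = 0.029). The letter in the authors' array names as the block (correlation 0.14) also changed no count and gave 1.07 (adjusted p = 0.041). LPS and medium arrays of 1 genotype with the same number deviated together with r over 0.1 in 7 of 10 pairs, and those with the same letter in 7 of 10, against 5 of 30 other pairs. Ages matched in 8 of 10 pairs by number and 10 of 10 by letter, and both MK2-/- replicate 3 arrays share the low Y-linked signal. No label says that a number or letter marks shared animals, r was not over 0.1 in every pair, and not every array correlated best with its own number, so whether the arrays are paired was left undecided and the fit has no block. Low signals limit Slfn1 and Slfn4 in medium.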
